A study of Mus musculus with 7 samples.

Results

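The thrombospondins and their neuronal α2δ receptors were examined in the hippocampus of male, age-matched outbred CD1 mice by RNA sequencing. The 8 genes, Thbs1 to Thbs4 and Cacna2d1 to Cacna2d4, were taken by symbol from the 55416 Ensembl genes counted in each of 7 libraries, and all 8 were matched once. The family was chosen because Thbs4 was low in both ONX-0914 libraries, so the comparisons of ONX-0914 with control and with DMSO are given for these genes as a description, with the number of members called stated once beside that of all genes and nothing read from it. The comparison of DMSO with control was not used in the choice. The control group held 3 libraries from untreated mice (replicates 1, 2 and 3). The DMSO group held 2 libraries (replicates 2 and 3) from mice injected with the solvent intraperitoneally 2 times a week for 2 months. The ONX-0914 group held 2 libraries (replicates 1 and 2) from mice given 10 mg/kg of ONX-0914, an inhibitor of the immunoproteasome, by the same route and schedule. The age itself and the number of mice behind each library were not given in the labels, and p-values therefore measure the spread between these libraries.

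Thrombospondins are secreted glycoproteins of the extracellular matrix. In the brain they are released mainly by astrocytes, the star-shaped glia that contact synapses, and they promote the formation of excitatory synapses during development and after injury. Their neuronal receptor in this role is the α2δ subunit encoded by Cacna2d1, an auxiliary subunit of voltage-gated calcium channels that is also the binding site of gabapentin, and α2δ subunits in general carry the pore-forming subunits to the cell surface.

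The members of each family are related in sequence, so it was examined whether a read of 100 bases could be shared between them. In the GENCODE M21 transcripts (GRCm38), 0 of the distinct windows of 100 bases in each of the 8 genes occurred in a transcript of any other gene. The longest coding stretches shared within the trimeric thrombospondins (Thbs1 and Thbs2) and within the pentameric ones (Thbs3 and Thbs4) are shown to let a reader see how close the members come, with the shared bases in capitals and 10 flanking bases on each side in lower case. The stretch of 26 bases of Thbs1 lies at chr2:118120893-118120918 on the plus strand, in exon 15 of 22 of its transcript. That of Thbs2 lies at chr17:14676284-14676309 on the minus strand, also in exon 15 of 22. The stretch of 20 bases in Thbs3 crosses the junction of exons 18 and 19 of 23 and that in Thbs4 the junction of exons 17 and 18 of 22.
Thbs1: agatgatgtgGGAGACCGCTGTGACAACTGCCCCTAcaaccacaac
Thbs2: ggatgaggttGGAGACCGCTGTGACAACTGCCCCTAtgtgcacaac
Thbs3: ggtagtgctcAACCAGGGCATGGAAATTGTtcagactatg
Thbs4: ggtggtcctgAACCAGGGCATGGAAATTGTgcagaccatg
Among the α2δ genes the longest shared coding stretch was 17 bases, between Cacna2d3 and Cacna2d4. Exons overlapping a gene on the other strand made up 6.59% of Thbs3 (318 bases, Mtx1), 3.43% of Thbs1 (208 bases, Gm29233) and 1.03% of Cacna2d2 (82 bases, Gm17141). Whether the counting used strand is not given in the sources used here, so for these genes a small part of the counts cannot be assigned to a strand.

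Total counts per library ranged from 2842675 to 3877006 in 6 libraries and reached 13782270 in ONX-0914 replicate 2, whose mitochondrial share was 3.71% against 0.818 to 1.59% in the others. Markers of the hippocampal subfields (10 genes of CA1, CA3 and dentate gyrus) were detected in all 7 libraries, with summed levels of 887 to 920 CPM (counts relative to the TMM-scaled library size) in control and 901 and 930 CPM in DMSO. In ONX-0914 replicate 1 all 10 were below every control library and summed to 291 CPM, while all 11 striatal markers (1418 CPM, control 243 to 275) and all 9 thalamic and midbrain markers (1097 CPM, control 107 to 118) were above every control library. In ONX-0914 replicate 2 the hippocampal sum was 779 CPM with 6 of 10 markers below every control library. Wfs1 (190.5 CPM), Bok (55.6 CPM) and Lct (60.3 CPM) were above every control library there. Of the neocortical markers, 4 of 6 were above every control library and 1 was below (sum 377 CPM, control 229 to 307). Gbx2 or Shox2, and Irx2, all of the thalamic list, were at 0 in each control library. Both ONX-0914 libraries thus stood apart from the others, in different ways, and for the members each Log2FC of ONX-0914 against control is also given without either of them.

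In control hippocampus the family was dominated by Cacna2d1, Cacna2d3 and Thbs4. Per kilobase of annotated exon, Cacna2d1 stood at 17.5 ± 0.0327 CPM per kb (SD, n = 3), followed by Cacna2d3 at 13.01 ± 0.824, Thbs4 at 9.99 ± 0.953 and Cacna2d2 at 3.10 ± 0.305. Thbs3 (1.35 ± 0.370) and Thbs2 (0.953 ± 0.261) overlapped between libraries, as did Thbs1 (0.249 ± 0.0993) and Cacna2d4 (0.159 ± 0.0625), whereas each other neighbour in this order was separated in all 3 libraries. With the length of the longest transcript in place of the union of exons, Cacna2d3 (30.7 CPM per kb) came before Cacna2d1 (29.2 CPM per kb), so their order depends on the length used. In DMSO the libraries of Cacna2d1 and Cacna2d3 overlapped, and in ONX-0914 Cacna2d2 (5.61 CPM per kb) came before Thbs4 (2.13 CPM per kb).

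**Figure D1:**
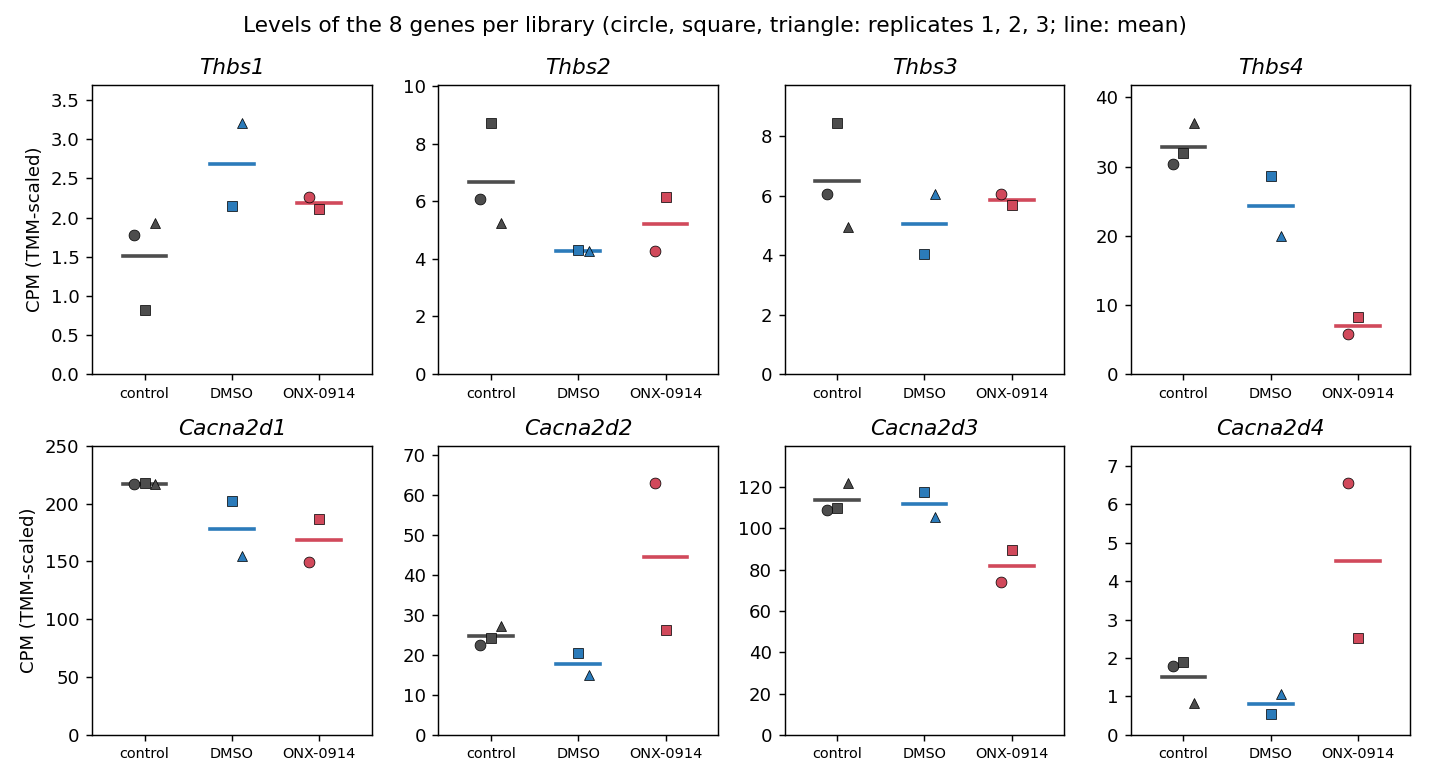
CPM of each of the 8 genes (vertical axis, scaled by TMM, starting at 0) in each library of the control, DMSO and ONX-0914 groups; symbols mark the replicate number and lines the group mean. Thbs4 lies at 5.79 and 8.19 CPM in the ONX-0914 libraries and at 19.99 CPM or more in the other 5, whereas the 2 ONX-0914 libraries are far apart for Cacna2d2 (62.9 and 26.3 CPM).

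Thbs4 (ENSMUSG00000021702, GRCm38 chr13:92751590-92794818, minus strand), a pentameric thrombospondin also found in muscle and tendon, was the most abundant thrombospondin per kilobase in every library. It was at 30.3, 31.9 and 36.4 CPM in control replicates 1, 2 and 3, at 28.7 and 19.99 CPM in DMSO replicates 2 and 3, and at 5.79 and 8.19 CPM in ONX-0914 replicates 1 and 2. Both ONX-0914 libraries lay below all 5 others, which was the property that chose the family and which 11.3% of the 13152 genes tested shared. These levels rest on 85, 117 and 132 counts in control, 107 and 56 in DMSO, and 23 and 124 in ONX-0914.

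The mean level of Thbs4 was 6.99 ± 1.70 CPM in ONX-0914 (SD, n = 2) against 32.9 ± 3.13 CPM in control (n = 3), 4.55-fold lower, with a Log2FC of -2.19 ± 0.27 (SE). Against DMSO (24.3 ± 6.16 CPM, n = 2) it was 3.39-fold lower, with a Log2FC of -1.76 ± 0.28. The Log2FC against control was -2.02 without ONX-0914 replicate 1 and -2.51 without ONX-0914 replicate 2, and it stayed below 0 in all 16 alternatives to the processing, which the choice of the family on both libraries makes likely in advance.

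Markers of several cell types moved in the same libraries as Thbs4. Relative to the summed hippocampal subfield markers, Thbs4 stood at 3.29 to 3.95% in control and at 3.09 and 2.22% in DMSO. For ONX-0914 it stood at 1.99% in replicate 1, close to the lower DMSO value, and at 1.05% in replicate 2. Relative to the 11 astrocyte markers, none of which was at 0, it stood at 0.436 to 0.536% in control, 0.407 and 0.295% in DMSO, and 0.0862 and 0.140% in ONX-0914. The astrocyte markers themselves summed to 6782 to 7210 CPM in control, 7059 and 6784 in DMSO, and 6714 and 5873 in ONX-0914. The list moved in opposite ways in the ONX-0914 libraries. In replicate 1, 8 of 11 markers were above every control library and 2 below (median log2 difference 0.33). In replicate 2, 8 of 11 were below and 2 above (median -0.36). The 10 endothelial and mural markers, with none at 0, summed to 406.0 and 370.7 CPM in ONX-0914 against 239.2 to 269.4 CPM in control and 258.9 and 294.9 CPM in DMSO. In ONX-0914 replicates 1 and 2, 7 and 6 of these 10 were above every control library, and 1 and 2 were below. The 5 ependymal markers summed to 34.0 and 15.1 CPM in ONX-0914 against 41.7 to 60.3 CPM in control and 40.0 and 55.0 CPM in DMSO. In each ONX-0914 library 3 of 5 were below every control library, and Tmem212 was at 0 in control replicate 3. The part of these markers in the level of Thbs4 was not tested, and in bulk tissue fewer cells of a type and less RNA per cell cannot be told apart.

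**Figure D2:**
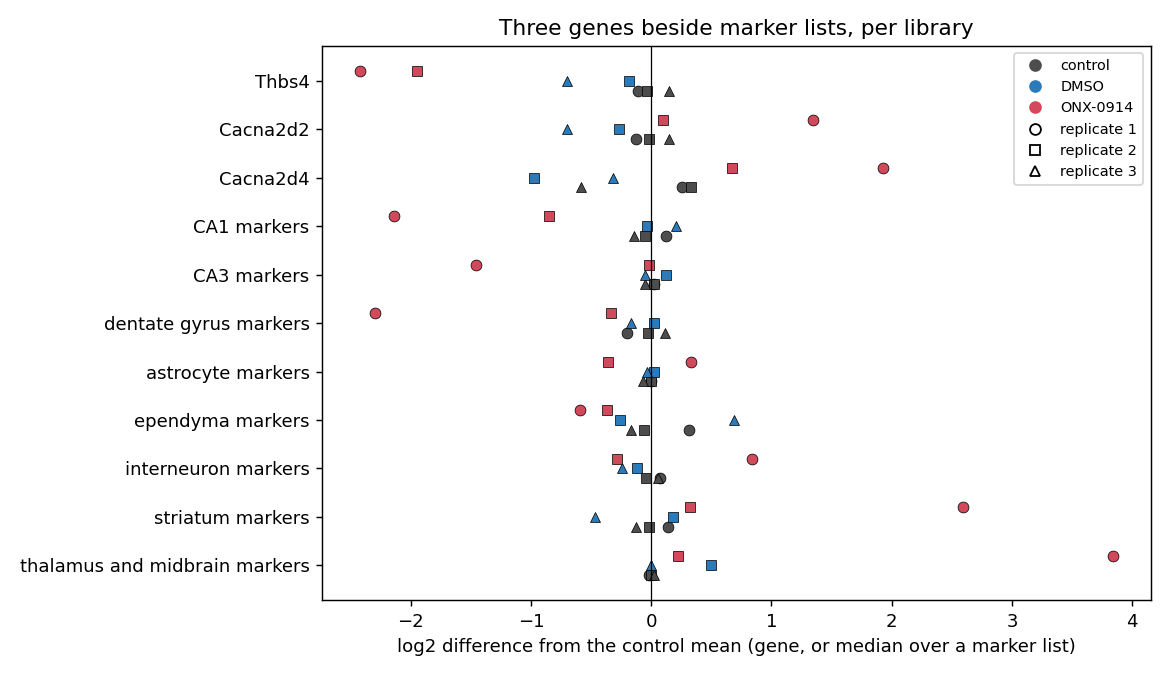
Difference from the control mean on the log2 scale (horizontal axis) of Thbs4, Cacna2d2 and Cacna2d4, and the median difference over the genes of 8 marker lists, for each of the 7 libraries. Thbs4 is low in ONX-0914 replicates 1 and 2 (-2.42 and -1.95). The medians of the CA1 (-2.14 and -0.85), CA3 (-1.46 and -0.02), dentate gyrus (-2.30 and -0.33) and ependymal (-0.59 and -0.36) lists are also below 0 in both. Thbs4, Cacna2d2 and the CA1, CA3, dentate gyrus, striatal and thalamic lists lie farther from 0 in ONX-0914 replicate 1 than in replicate 2.

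Thbs1, Thbs2 and Thbs3 were at a low level in this tissue. Thbs2 (ENSMUSG00000023885, chr17:14665500-14694235, minus strand), a trimeric thrombospondin that binds CD36 and CD47, was at 6.06, 8.72 and 5.23 CPM in control, 4.29 and 4.28 CPM in DMSO, and 4.28 and 6.15 CPM in ONX-0914. Thbs3 (ENSMUSG00000028047, chr3:89215180-89226837, plus strand), the pentameric relative of Thbs4, was at 6.06, 8.45 and 4.96 CPM in control, 4.02 and 6.07 CPM in DMSO, and 6.04 and 5.68 CPM in ONX-0914. For both genes the ONX-0914 libraries overlapped control, and the Log2FC against control was -0.31 ± 0.34 for Thbs2 and -0.16 ± 0.34 for Thbs3. Without ONX-0914 replicate 1 these values were -0.14 and -0.21, and without ONX-0914 replicate 2 they were -0.65 and -0.11. The Log2FC of Thbs3 turned to 0.092 without control replicate 2. Against DMSO it was 0.33 ± 0.40 for Thbs2, which turned to -0.0071 without ONX-0914 replicate 2, and 0.23 ± 0.39 for Thbs3, which turned to -0.066 without DMSO replicate 2. Neither gene thus had a settled direction against DMSO, nor Thbs3 against control.

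Thbs1 (ENSMUSG00000040152, chr2:118111876-118127133, plus strand), the activator of latent TGF-β, did not pass the filter on low counts. It had 5, 3 and 7 counts in control, 8 and 9 in DMSO, and 9 and 32 in ONX-0914, or 1.51 ± 0.603, 2.68 ± 0.754 and 2.19 ± 0.106 CPM. Every DMSO and ONX-0914 library was above every control library, by a few counts.

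As a consequence the make-up of the family differed. Thbs4 accounted for 75.6 to 84.1% of the summed thrombospondin level per kilobase in control, 82.9 and 71.7% in DMSO, and 44.0 and 50.9% in ONX-0914, while the sum itself was 11.6 to 13.1 CPM per kb in control, 10.5 and 8.48 in DMSO, and 3.996 and 4.896 in ONX-0914. Thbs3 was the second thrombospondin in every library, at 7.82 to 13.7% in control and 31.3 and 24.1% in ONX-0914. These shares follow from the Thbs4 level that chose the family and are not separate results.

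**Figure D3:**
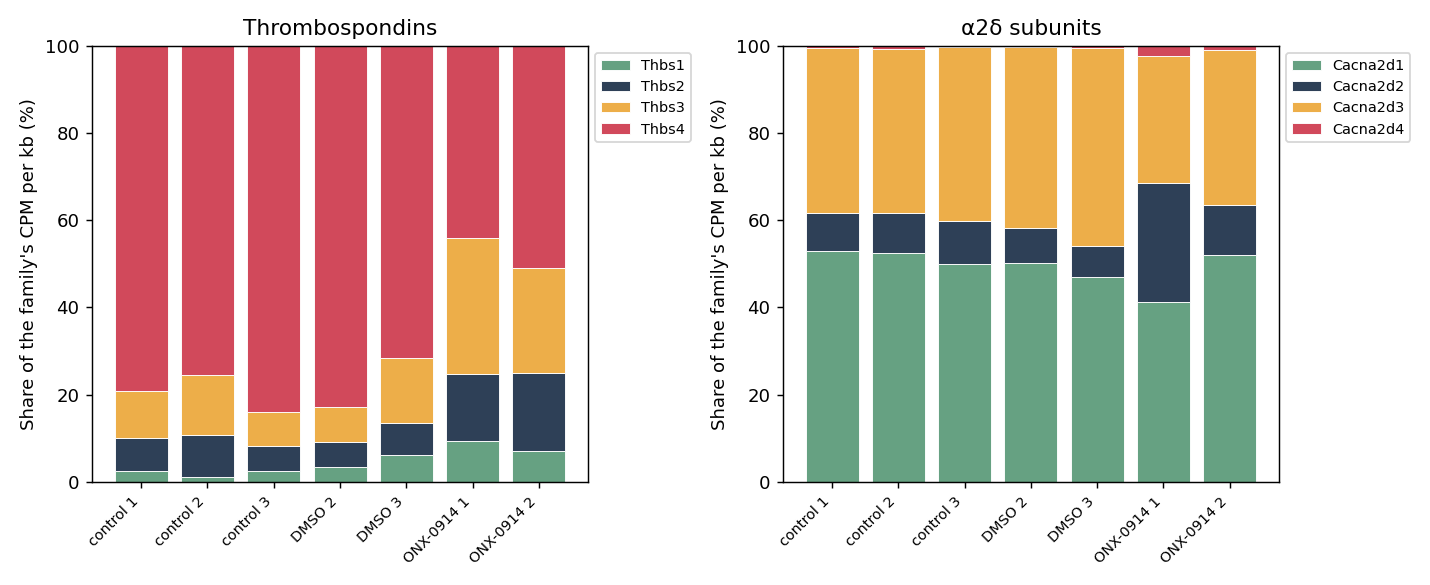
Share of each gene in its family's summed CPM per kb of exon (vertical axis, percent) in each library, for thrombospondins (left) and α2δ subunits (right). Thbs4 takes 71.7% or more in the control and DMSO libraries and 44.0 and 50.9% in ONX-0914, and Cacna2d2 takes 27.2% of the α2δ level in ONX-0914 replicate 1 against 7.09 to 11.5% elsewhere.

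Of the receptors, Cacna2d1 and Cacna2d3 were lower in ONX-0914 than in every control library by small amounts, and Cacna2d2 and Cacna2d4 were highest in ONX-0914 replicate 1. Cacna2d1 (ENSMUSG00000040118, chr5:15934691-16374511, plus strand), the thrombospondin receptor, was at 216.8, 217.6 and 217.3 CPM in control, 202.0 and 154.9 CPM in DMSO, and 149.5 and 186.9 CPM in ONX-0914. Its Log2FC in ONX-0914 was -0.37 ± 0.19 against control and -0.085 ± 0.20 against DMSO, and the latter turned to 0.11 without DMSO replicate 2, to 0.051 without ONX-0914 replicate 1 and to 0.054 when libraries were scaled by total counts only. Cacna2d3 (ENSMUSG00000021991, chr14:28904943-29721864, minus strand), a subunit of central and sensory neurons, was at 108.7, 109.9 and 121.7 CPM in control, 117.5 and 105.7 CPM in DMSO, and 74.0 and 89.5 CPM in ONX-0914. Both ONX-0914 libraries were below all 5 others, and the Log2FC was -0.47 ± 0.17 against control and -0.45 ± 0.18 against DMSO. Without ONX-0914 replicate 1 the Log2FC against control was -0.23 for Cacna2d1 and -0.35 for Cacna2d3, and without ONX-0914 replicate 2 it was -0.54 and -0.62.

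Cacna2d2 (ENSMUSG00000010066, chr9:107399612-107529343, plus strand), whose loss causes ataxia and absence seizures in the ducky mouse, was at 22.5, 24.3 and 27.3 CPM in control, 20.4 and 14.99 CPM in DMSO, and 62.9 and 26.3 CPM in ONX-0914 replicates 1 and 2. Replicate 2 lay within the control range, and the Log2FC against control of 0.83 ± 0.35 became 0.075 without ONX-0914 replicate 1 and 1.34 without ONX-0914 replicate 2. Against DMSO the Log2FC was 1.30 ± 0.40, and it was 0.54 and 1.80 without the one or the other. The 7 interneuron markers summed to 1283 and 628 CPM in ONX-0914 replicates 1 and 2, against 583 to 631 CPM in control and 572 and 524 CPM in DMSO, with none at 0 in any library. The list was split in both ONX-0914 libraries. In replicate 1, 4 of 7 markers were above every control library and 2 below, among them Sst (22.7 CPM). In replicate 2, 3 were above, among them Sst (111.2 CPM), and 4 below, so the sum does not stand for the whole list. Expressed relative to the interneuron sum, Cacna2d2 stood at 3.61 to 4.32% in control, 3.57 and 2.86% in DMSO, and 4.91 and 4.19% in ONX-0914. The part of these cells, or of the striatal and thalamic markers high in the same library, in the level of Cacna2d2 was not tested.

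Cacna2d4 (ENSMUSG00000041460, chr6:119236526-119352407, plus strand), a subunit best known from photoreceptors, had 5, 7 and 3 counts in control, 2 and 3 in DMSO, and 26 and 38 in ONX-0914. It passed the filter on low counts only through the ONX-0914 libraries. Its levels were 1.78, 1.91 and 0.826 CPM in control, 0.537 and 1.07 CPM in DMSO, and 6.54 and 2.51 CPM in ONX-0914, so that both ONX-0914 libraries were above all 5 others. The Log2FC against control was 1.42 ± 0.62, and it was 0.74 without ONX-0914 replicate 1 and 2.11 without ONX-0914 replicate 2. Against DMSO it was 2.34 ± 0.82.

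Against control, 1 of the 7 genes that passed the filter, Thbs4, was called at a false discovery rate (FDR) below 0.05 by edgeR's quasi-likelihood test, beside 0.114% of all 13152 genes tested, and 3 had an unadjusted p below 0.05, beside 18.6% of all genes. Against DMSO 0 of 7 were called, beside 0.0456% of all genes, although 4 had an unadjusted p below 0.05 (14.7% of all genes) and DESeq2 called 1 (Thbs4), beside 1.81% of all genes. As the family was chosen on these libraries, nothing is read from these counts. The call of Thbs4 against control was lost when any 1 of the control or DMSO libraries was left out, and 0 to 5 members were called when 1 library was left out. It was 2 without ONX-0914 replicate 1 (Thbs4 and Cacna2d3), where 51.2% of all genes were called, and 5 without ONX-0914 replicate 2 (Thbs4 and the 4 α2δ genes), where 19% were. In these fits the lone library was assumed to vary like the others. Without control replicate 1, 0 of all genes were called against control, so the loss in that fit was not particular to Thbs4. Any gene at all was called against control in 13 of 16 alternatives. Against DMSO, 2 were called without ONX-0914 replicate 1 (46% of all genes) and 4 without ONX-0914 replicate 2 (17% of all genes). Of the 7 genes, 3 were below every control library in both ONX-0914 libraries and 1 was above (Cacna2d4, which passed the filter through these libraries), beside 16.3% and 16.9% of all genes. Against DMSO, 2 were below every DMSO library and 2 above, beside 19.7% and 20.8% of all genes.

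**Figure D4:**
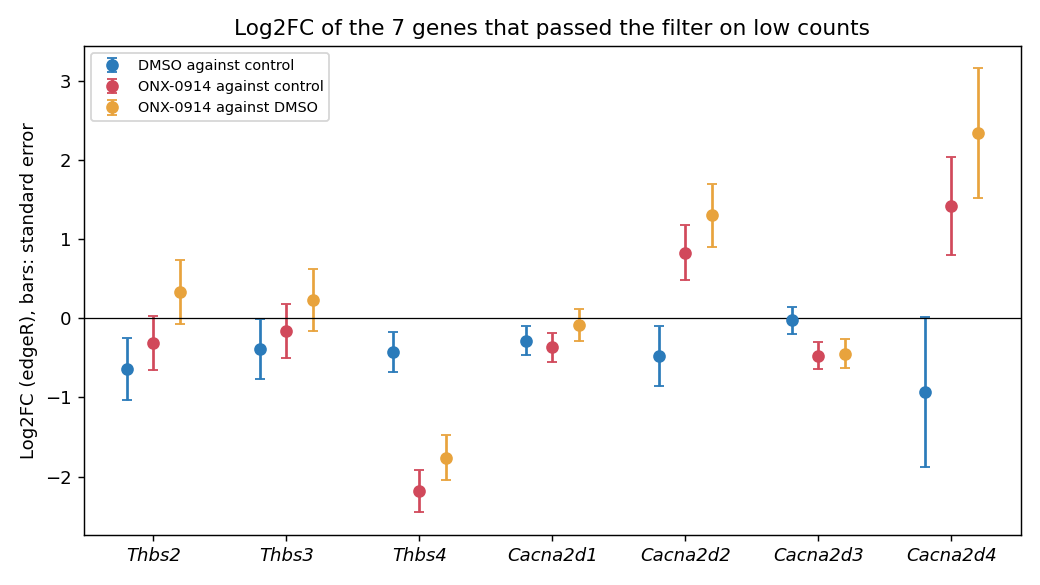
Log2FC (vertical axis) with its standard error for the 7 genes that passed the filter on low counts, in DMSO against control, ONX-0914 against control and ONX-0914 against DMSO, as fitted by edgeR over all 7 libraries. In the comparisons with ONX-0914 Thbs4 stands lowest (-2.19 and -1.76) and Cacna2d4 highest (1.42 and 2.34), and in DMSO against control all 7 values are below 0.

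In DMSO against control, the comparison the choice of the family did not use, 0 of the 7 genes tested were called. In the fit over all 7 libraries 0 passed the FDR threshold in edgeR and 0 had an unadjusted p below 0.05 (2.65% of all genes). DESeq2 and limma voom also called 0. Of all 13152 genes, edgeR called 2 (0.0152%), DESeq2 9 and limma voom 0, so the count of members in limma voom could only be 0. With only the control and DMSO libraries in the fit, 0 were still called (1.11% of all genes) but 3 had an unadjusted p below 0.05, beside 15% of all genes, namely Cacna2d1, Cacna2d2 and Thbs4 (edgeR FDR = 0.245, 0.276 and 0.292). The counts were also 0 and 3 when ONX-0914 replicate 1 alone was left out (0.955% and 14.4% of all genes) or ONX-0914 replicate 2 alone (1.07% and 14.5%). All 7 Log2FC were below 0, from -0.024 ± 0.17 for Cacna2d3 to -0.93 ± 0.95 for Cacna2d4, with a median of -0.43 against -0.0032 over all genes tested. Thbs4 had a Log2FC of -0.43 ± 0.25 (FDR = 0.9999, edgeR), which became -0.72 without DMSO replicate 2 and -0.20 without DMSO replicate 3. The Log2FC of Cacna2d1 was -0.28 ± 0.19 and that of Cacna2d2 -0.47 ± 0.38. In 4 of the 7 genes (Thbs2, Thbs4, Cacna2d1 and Cacna2d2) both DMSO libraries were below every control library, beside 15% of all genes tested, and 0 of the 7 were above, beside 15.7%. Cacna2d3 was the only tested member whose Log2FC in this comparison changed sign under an alternative, to 0.0305 without control replicate 3 and 0.049 without DMSO replicate 3.

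Genes that act with the family were described from lists of 5 kinds, with 4 to 14 genes tested in each. Of all 13152 genes, edgeR called 0.0152% in DMSO against control, 0.114% in ONX-0914 against control and 0.0456% in ONX-0914 against DMSO. An unadjusted p below 0.05 in edgeR was found for 2.65%, 18.6% and 14.7% of all genes in the same order. The counts of each list stand beside these shares, and nothing is read from them. Of the thrombospondin receptors and binding partners, 14 of 15 were tested and 0 were called in any of the 3 comparisons by edgeR, with 0, 2 and 3 at an unadjusted p below 0.05 in DMSO against control, ONX-0914 against control and ONX-0914 against DMSO. Their median Log2FC in ONX-0914 against control was -0.0011, against 0.046 over all genes. Calr, the endoplasmic reticulum chaperone that also serves as a cell-surface partner of thrombospondin, had the highest mean level of the list, at 810.9 to 910.6 CPM in control, 1202 and 1200.1 CPM in DMSO, and 995.9 and 439.2 CPM in ONX-0914 replicates 1 and 2. The ONX-0914 libraries thus lay on either side of control. Lrp1, the endocytic receptor that works with it, was at 311.1 to 378.1 CPM in control, 286.8 and 222.4 CPM in DMSO, and 361.4 and 336.8 CPM in ONX-0914. Both ONX-0914 libraries lay within the control range, while both DMSO libraries lay below every control and ONX-0914 library. The Log2FC of Lrp1 in ONX-0914 against DMSO was 0.45 ± 0.20. DESeq2 also called 0 of this list in each comparison. Without ONX-0914 replicate 1 the Log2FC against control was 0.67 for Cd47, 0.54 for Itgav, -0.80 for Itgb1 and -0.97 for Calr. Without ONX-0914 replicate 2 it was -0.17, 0.0044, 0.41 and 0.22 in the same order of genes. Cd47, Itgb1 and Calr thus changed sign with the library left out. So did Nlgn1 (0.090 and -0.73) and Notch3 (-0.089 and 1.39). The sign was kept by Itga3 (0.54 and 1.13), Itga6 (0.39 and 0.89) and Atf6 (-0.15 and -1.15).

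Of the matricellular and astrocyte-secreted synapse factors, 6 of 7 were tested and 0 were called by edgeR in any comparison, with 0, 2 and 2 at an unadjusted p below 0.05 in DMSO against control, ONX-0914 against control and ONX-0914 against DMSO. Sparcl1 (hevin), which bridges neurexin and neuroligin at excitatory synapses, was at 3238 to 3860 CPM in control and at 4330 and 2039 CPM in ONX-0914 replicates 1 and 2. Sparc, its antagonist, was at 263.5 to 386.5 CPM in control and at 1036.7 and 263.5 CPM in ONX-0914. For both genes replicate 1 was above every control library, while replicate 2 was below them for Sparcl1 and level with the lowest of them for Sparc, and the Log2FC of Sparc against control, 1.03 ± 0.47, was -0.27 without ONX-0914 replicate 1 and 1.71 without ONX-0914 replicate 2. DESeq2 called 1 of them in ONX-0914 against control, beside 2.95% of all genes, namely Gpc4, an astrocyte-secreted glypican that recruits AMPA receptors. Gpc4 stood at 37.1 to 49.3 CPM in control, 39.98 and 29.99 CPM in DMSO, and 6.29 and 20.4 CPM in ONX-0914, where both libraries were below all 5 others. Its Log2FC against control was -1.68 ± 0.42 (FDR = 0.131 in edgeR), and it was -1.17 without ONX-0914 replicate 1 and -2.85 without ONX-0914 replicate 2. Comp, the remaining thrombospondin, was below 1 CPM in every library and was not tested.

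Of the Cav1 and Cav2 pore-forming subunits, 5 of 7 were tested and 0 were called in edgeR or DESeq2 in any comparison, with 1, 1 and 0 at an unadjusted p below 0.05 in the same order of comparisons. Cacna1e, the pore of R-type channels, was at 355.5 to 377.6 CPM in control, 288.4 and 231.3 CPM in DMSO, and 99.9 and 291.8 CPM in ONX-0914 replicates 1 and 2. Its Log2FC against control was -0.89 ± 0.39, and it was -0.33 without ONX-0914 replicate 1 and -1.87 without ONX-0914 replicate 2. Cacna1b, the pore of N-type channels, was at 113.7 to 137.7 CPM in control, 89.9 and 75.3 CPM in DMSO, and 105.5 and 109.96 CPM in ONX-0914. All 5 had a Log2FC below 0 in DMSO against control, with a median of -0.40 against -0.0032 over all genes tested. When both ONX-0914 libraries were left out of the fit of DMSO against control, or either one, Cacna1b and Cacna1e were called, and Calr of the thrombospondin partners, beside 0.955 to 1.11% of all genes.

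All 4 β subunit genes were tested and 0 were called in edgeR or DESeq2, with 0, 1 and 1 at an unadjusted p below 0.05. Cacnb3 was at 181.0 to 190.03 CPM in control and at 116.5 and 230.4 CPM in ONX-0914 replicates 1 and 2, on either side of control. Cacnb4 was at 131.4 to 139.8 CPM in control and at 223.0 and 167.2 CPM in ONX-0914. The Log2FC of Cacnb4 was 0.54 ± 0.19 (FDR = 0.199 in edgeR), and it was 0.31 without ONX-0914 replicate 1 and 0.73 without ONX-0914 replicate 2. All 6 α2δ binding partners and relatives were tested and 0 were called in edgeR or DESeq2, with 0 at an unadjusted p below 0.05 in each comparison. Prnp, the prion protein, which binds α2δ subunits, was at 819.6 to 898.8 CPM in control, 935.5 and 958.1 CPM in DMSO, and 702.5 and 707.9 CPM in ONX-0914. Lrp1, also of this list, is given above. Without ONX-0914 replicate 1 or replicate 2, respectively, the Log2FC against control was 0.42 or -0.79 for Cacnb1 and 0.31 or -0.66 for Cacnb3. For Cachd1, a relative of the α2δ subunits, it was -1.38 or 0.50. Cacnb1, Cacnb3 and Cachd1 thus changed sign with the library left out, whereas Prnp (-0.29 in both fits) and Cacnb4 did not.

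**Figure D5:**
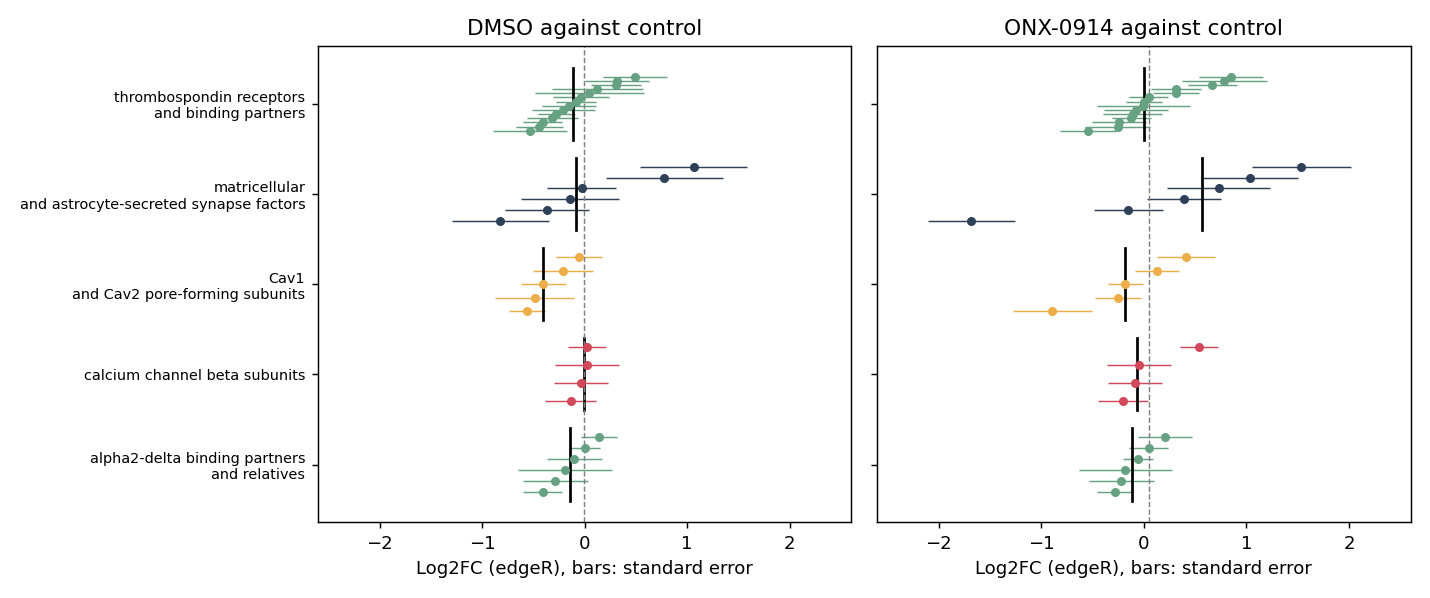
Log2FC (horizontal axis) with standard error of each tested gene in 5 lists of partners, in DMSO against control (left) and ONX-0914 against control (right); black bars mark the list medians and the dashed line the median of all 13152 genes tested. No gene of these lists passed the FDR threshold in edgeR, and Gpc4 (-1.68) and Chrdl1 (1.53) lie farthest from 0 in ONX-0914. The value of Chrdl1 was 1.85 without ONX-0914 replicate 1 and 0.88 without ONX-0914 replicate 2.

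The genes whose log2 CPM followed that of Thbs4 most closely over the 7 libraries, among 13145 others tested, were Galnt16 (Pearson's r = 0.994), Foxn2 (0.994), D430019H16Rik (0.991), Fem1b (0.990) and Gria1 (0.989). All 7 points of each correlation share their libraries, depth and scaling, and 311 genes had r above 0.9. The log2 difference of Thbs4 from the control mean was -2.42 and -1.95 in ONX-0914. In the control and DMSO libraries it was -0.70 to 0.15. A high r thus mainly picks genes low in both ONX-0914 libraries, the property that chose the family, and is no separate result about a link with Thbs4. Gria1, which encodes the GluA1 subunit of AMPA receptors, was at 1755, 1850 and 1683 CPM in control, 1587 and 1380 CPM in DMSO, and 496 and 667 CPM in ONX-0914. Galnt16, a glycosyltransferase gene, was at 235.0 to 243.4 CPM in control, 222.1 and 207.0 CPM in DMSO, and 132.4 and 141.7 CPM in ONX-0914. By Spearman's rho, 15 genes shared the highest value of 1, and 0 of the 5 genes above were among them.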

How the data were processed

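Hippocampal RNA from 7 libraries was sequenced as 100-base single-end reads from a strand-marking kit. The submitters' processing notes name Trimmomatic 0.39, STAR 2.7.3a, featureCounts 2.00 and the build GRCm39, and the authors deposited raw counts per Ensembl gene (55416 genes) for each library, together with summary lines that were left out of library sizes and tests. Of the reads in these files, 89.6 to 91.4% were assigned to a gene.

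The deposited counts were tested with edgeR 4.0.16 in R 4.3.3. Genes passing filterByExpr over the 3 groups (13152) were scaled by TMM and 1 quasi-likelihood model was fitted to all 7 libraries, with 3 contrasts and Benjamini-Hochberg adjustment (FDR below 0.05). CPM were computed from the same scaled library sizes, with a prior count of 2 on the log2 scale. Lengths, coordinates and sequences came from GENCODE M21 (GRCm38), which differs from the build of the counts, so gene lengths are approximate and no coordinate was converted. Symbols were matched for 52083 genes. The fit was also run on simulated data in which all libraries had the same spread. The 2 ONX-0914 libraries differed more from each other than those of the other groups did, so the simulation does not cover this and nothing is read from it. DESeq2 1.42.0, limma 3.58.1 (voom), other scalings and filters, a replicate block, the compared groups alone and each library left out in turn were alternatives.

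The members and gene lists were chosen with earlier results of these data known. All 8 members were named, with the 2 most abundant genes of each list and every called list gene, and the 5 genes most like Thbs4. Gpc4, Chrdl1, Cacnb4 and the genes called only in an alternative were picked with their values in view.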

Additional observations from a re-analysis of the deposited data

How the results depend on the processing

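Of the members, 0 were called in DMSO against control in all 16 alternatives. Over all genes, any call was made in only 8 of these 16. In the rest the count of members could only be 0. In ONX-0914 against control the 1 call, Thbs4, was lost (0 called) with libraries scaled by total counts only and with only the compared groups in the fit, and 0 to 5 members were called when 1 library was left out. With the replicate number as a block 0 were called. Deviations of same-numbered libraries from their group means correlated at -0.0963 to 0.0640. With 2 libraries in DMSO and 2 in ONX-0914 the deviations within each of these groups mirror each other. The value of 0.0640 for replicate 2 of both groups is therefore also that of DMSO replicate 3 with ONX-0914 replicate 1. Whether the numbers pair the libraries thus cannot be told from these correlations. The block took the count over all genes from 15 to 1. In ONX-0914 against DMSO, 0 became 1 with DESeq2 and 1 with no filter on low counts, and the range over libraries left out was 0 to 4. Cacna2d3 in DMSO against control turned from -0.024 to 0.0305 without control replicate 3 and to 0.049 without DMSO replicate 3, within a range of -0.10 to 0.049 over libraries left out. Over all genes 0 to 146, 0 to 7023 and 0 to 6313 were called in DMSO against control, ONX-0914 against control and ONX-0914 against DMSO, against 2, 15 and 6 as reported. The causes were not tested. Total-count scaling moved the median Log2FC of all genes in ONX-0914 against control from 0.046 to 0.19. An earlier form of the edgeR fit, added after seeing the data, changed no call of a member. At 2 or 3 libraries a group and 2 to 9 counts per library for Thbs1 and Cacna2d4 in control and DMSO, small changes of those genes were not detectable.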
